A study of Mus musculus with 2 samples.

Results

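Chromatin contacts were examined at 40 genes that encode growth factors, their receptors and the proteins that restrain them, out of 21900 protein-coding genes in the annotation. The genes were chosen by name and comprised 17 ligands, 17 receptors, 2 insulin-like growth factor binding proteins and 4 feedback inhibitors. A gene counted as having a contact where a called pixel, a pair of 5 kb bins on one chromosome joined more often than their surroundings, had an anchor bin within 10 kb of either annotated end of the gene. The contacts came from Hi-C, which ligates and sequences pairs of DNA fragments that were neighbours in fixed nuclei. One library, here DKO, came from mice with the genotype Tet2/Tet3 DKO, Krt14-Cre, and the other from WT mice. Both were made from sorted primary hair matrix keratinocytes, whose divisions feed the growing hair shaft and its sheath, at postnatal day 4.5. TET2 and TET3 oxidise 5-methylcytosine in DNA. Krt14 is active in basal epithelium from which the matrix derives, so the deletion is not limited to matrix cells. How many animals were used per library, and whether WT mice carried Cre, is not given in the labels.

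Receptor tyrosine kinases are membrane proteins that signal through the RAS, MAPK and PI3K pathways, and many of them dimerise on binding a growth factor. Receptors for TGF-beta are serine and threonine kinases that signal through SMAD proteins. In the hair follicle IGF1 from the dermal papilla acts on IGF1R of matrix cells, TGF-beta ligands act at the end of growth, and mice with impaired Tgfa or Egfr have wavy hair. Sprouty proteins and DUSP6 are induced by these pathways and damp them.

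With 1 library per genotype no test was possible, and no value below has a replicate error. Differences between the lists compare these libraries and cannot be told apart from differences in depth, preparation or animals. The DKO list held 4872 pixels and the WT list 5811, with a median of 18 observed contacts per pixel in each. The contacts expected from the neighbourhood were, at the median, 0.973 times as many in DKO as in WT over the 1940 pixels listed in both, and 0.92 times over the 11 of these at the genes described here. Neither list says anything of pixels that were not called. Contacts do not measure transcripts, so cell identity could be looked at only through contacts. Of 8 hair matrix and basal markers, 5 (Dlx3, Foxn1, Krt14, Msx2 and Shh) had pixels in both lists. The other 3 (Hoxc13, Krt5 and Lef1) had none in either. Of 6 melanocyte markers, 0 were listed in DKO and 2 in WT, and of 6 immune and endothelial markers 1 was listed in DKO and 2 in WT. Of 6 dermal papilla and fibroblast markers 3 were listed in each (50%). Over all protein-coding genes 20.1% were listed in DKO, 21.2% in WT and 12.9% in both. Counts of so few markers do not establish which cells were present. The part of other cell types in the contacts described below was not tested.

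Contacts were called at 16 of the 40 genes. There were 13 genes with a pixel in the DKO list (32.5%), where 20.1% of all protein-coding genes had one. In the WT list there were also 13 genes (32.5%), where the share over all genes was 21.2%. Of the 16 genes, 10 were listed in both libraries: the ligands Vegfa and Efnb1, the receptors Erbb2, Igf1r, Insr, Fgfr1, Fgfr3 and Ephb2, and the binding proteins Igfbp3 and Igfbp5. That is 25% of the genes, against 12.9% of all protein-coding genes. Egfr, Tgfb2 and Spry1 were listed in DKO alone, 7.5% of the genes against 7.13% of all genes. Hbegf, Tgfa and Mst1r were listed in WT alone, also 7.5%, against 8.23% of all genes. With gene ends required inside the anchor bin, 6 genes were listed in DKO, 6 in WT and 5 in both, against 8.99%, 9.44% and 4.48% of all genes. With at least 20 observed contacts per pixel, 6 genes were listed in DKO, 7 in WT and 5 in both, against 9.47%, 10.6% and 6.24% of all genes. At the 10 kb limit and all listed counts, the shares listed in a single library were close to those over all genes. In either list the share was 40% of these genes and 28.3% of all genes.

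By role, a contact was called in either list at both binding proteins, 8 of 17 receptors, 5 of 17 ligands and 1 of 4 feedback inhibitors. Receptors stood at 47.1%, ligands at 29.4% and feedback inhibitors at 25%, against 28.3% of all protein-coding genes. Outside these genes the order of receptors and ligands turned around, with 30.8% of 39 other receptor tyrosine kinases and 48.1% of 27 other ligands. These are counts of few genes, and the roles were not tested against each other. The 40 genes held 30 pixels in DKO (95% Poisson interval 20.2 to 42.8) and 31 in WT (21.1 to 44.0), 0.616% and 0.533% of the lists. Enrichment, the observed contacts divided by those expected from a donut-shaped neighbourhood, had a median of 5.08 over the DKO pixels and 4.5 over the WT pixels. That order turned around with at least 20 contacts (3.7 in DKO and 4.29 in WT), and with the expected counts of the bottom-left (4.49 in DKO and 4.56 in WT) and vertical (4.19 in DKO and 4.2 in WT) neighbourhoods. At an FDR under 0.01 both medians were 5.27. Over all pixels of the lists the medians, with the donut, were 4.95 in DKO and 5.11 in WT. The pixels at these genes had a median span of 170 kb in DKO and 155 kb in WT, against 100 kb and 115 kb over all pixels. Of the 30 DKO pixels 11 were also listed in WT as the identical pair of bins, 12 had a WT pixel within 2 bins at both anchors, and 7 had none. For the 31 WT pixels these numbers were 11, 13 and 7.

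**Figure D1:**
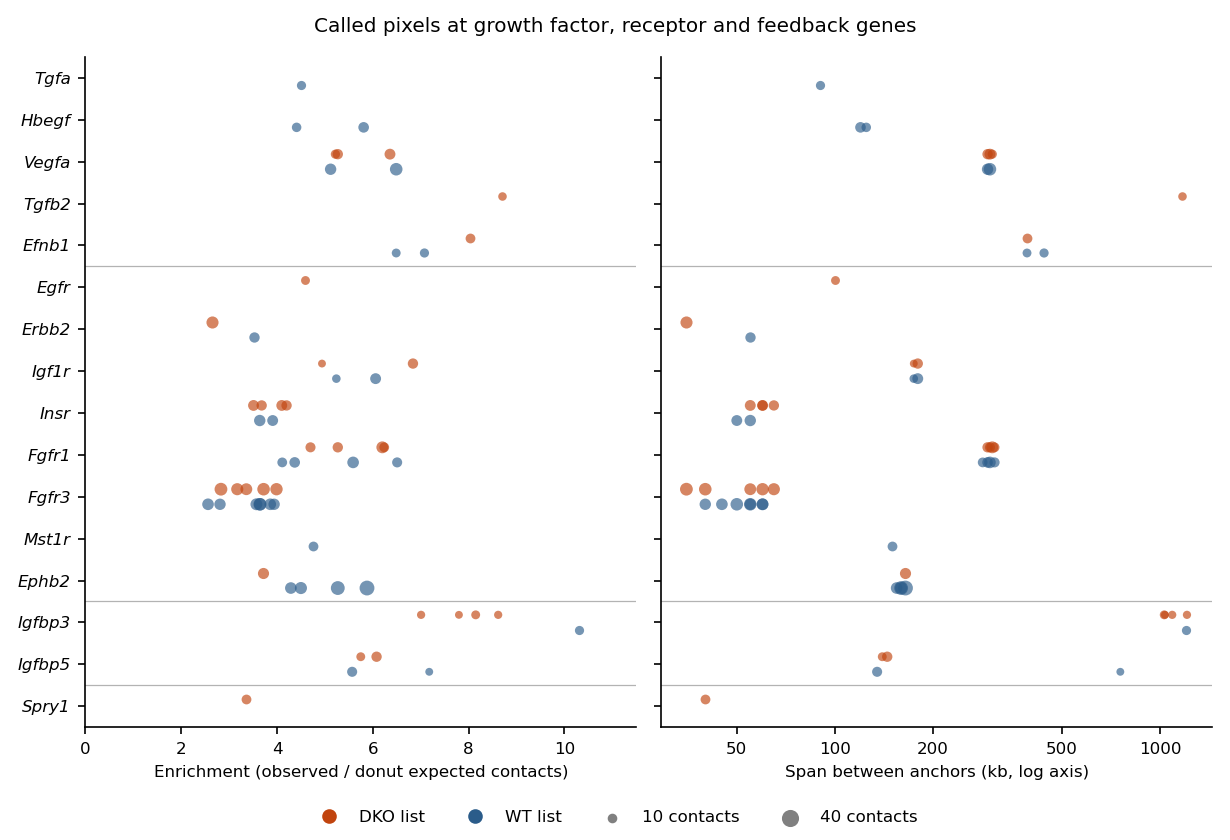
Enrichment (left, observed over donut expected contacts) and span (right, kb on a log axis) of every called pixel at the 16 genes with a contact. Each point is 1 pixel with its area proportional to the observed contacts, DKO above WT for each gene, and grey lines part ligands, receptors, binding proteins and the feedback inhibitor; spans run between 35 and 1210 kb, and the longest belong to Tgfb2 and Igfbp3.

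At 3 genes listed in both libraries, Vegfa, Igf1r and Fgfr3, an annotated promoter window lay inside an anchor bin of a pixel found in both lists. Insr and Fgfr1 also had a pixel found in both lists, but no start was placed for them, so they could not be looked at. These promoters are shown because TET proteins act on cytosines followed by guanine, and the windows differ in how many they hold. The sequences are from RefSeq (GRCm38.p6), 250 bases before to 50 after the start, 5′ to 3′ on the gene's strand, with each CG in capitals. The Igf1r window (chr7:67952007-67952306, plus strand) held 48 CG, a number that 1.2% of 32851 promoter windows reach. Fgfr3 has a pair of annotated starts, with 26 CG at chr5:33721474-33721773 and 30 CG at chr5:33722056-33722355 (plus strand). These numbers are reached by 16.9% and 11.7% of all windows. The Vegfa window (chr17:46032328-46032627, minus strand) held 16 CG, which 33% of all windows reach, and the median over all windows was 7. Another annotated Vegfa start (chr17:46025114-46025413, 10 CG) lay outside the anchors shared by the lists and is not shown. The letters GGGCGG, a GC box, occurred on either strand in all 4 windows shown and in 35.7% of all windows. CCCTC, part of the motif of the loop anchor protein CTCF, occurred in the Igf1r window, both Fgfr3 windows and 66% of all windows. It was absent from the Vegfa window shown and present at the other Vegfa start.
Igf1r: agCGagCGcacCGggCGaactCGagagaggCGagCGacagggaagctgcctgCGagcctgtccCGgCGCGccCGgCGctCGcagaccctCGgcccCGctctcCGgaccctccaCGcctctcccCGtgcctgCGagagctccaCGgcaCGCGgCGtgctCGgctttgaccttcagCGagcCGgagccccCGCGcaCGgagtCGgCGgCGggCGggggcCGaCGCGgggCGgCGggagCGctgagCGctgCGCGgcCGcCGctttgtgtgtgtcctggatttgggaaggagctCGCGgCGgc
Fgfr3, first start: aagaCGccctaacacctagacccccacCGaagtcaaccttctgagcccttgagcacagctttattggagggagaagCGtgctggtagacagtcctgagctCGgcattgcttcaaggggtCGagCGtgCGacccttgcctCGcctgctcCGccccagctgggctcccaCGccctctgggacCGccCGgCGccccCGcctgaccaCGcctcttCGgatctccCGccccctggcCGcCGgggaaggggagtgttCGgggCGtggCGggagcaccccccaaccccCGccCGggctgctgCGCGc
Fgfr3, second start: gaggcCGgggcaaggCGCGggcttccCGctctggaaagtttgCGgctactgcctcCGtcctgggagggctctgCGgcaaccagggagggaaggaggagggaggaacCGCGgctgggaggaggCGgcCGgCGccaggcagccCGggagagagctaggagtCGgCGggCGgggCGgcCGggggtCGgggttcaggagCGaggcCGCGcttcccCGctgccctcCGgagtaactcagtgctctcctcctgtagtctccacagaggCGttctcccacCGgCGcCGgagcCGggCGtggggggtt
Vegfa: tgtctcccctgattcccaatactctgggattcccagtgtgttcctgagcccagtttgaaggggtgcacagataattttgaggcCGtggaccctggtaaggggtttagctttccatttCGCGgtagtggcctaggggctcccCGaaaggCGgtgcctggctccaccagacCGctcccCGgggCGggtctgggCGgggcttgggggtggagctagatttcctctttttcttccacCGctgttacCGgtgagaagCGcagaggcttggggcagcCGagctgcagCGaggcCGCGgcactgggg

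Among the ligands, Vegfa had the most contacts. Vegfa encodes vascular endothelial growth factor A, which drives growth of blood vessels, and lies on chromosome 17 (46016993 to 46032377). The bin that holds the promoter window shown above was joined over 300 kb, beyond the 3′ end of the gene, to a bin at 1600014C23Rik. That is a protein-coding gene known only by its clone name. The pixel over 300 kb had 21 observed contacts in DKO and 28 in WT. These were 6.36 times the expected count in DKO (95% interval 3.94 to 9.72) and 6.49 times in WT (4.31 to 9.38). The neighbouring pixel over 295 kb stood at 5.27 times in DKO (3.17 to 8.23) and 5.12 times in WT (3.25 to 7.69). The DKO/WT ratios of enrichment were 0.98 (0.529 to 1.79) and 1.03 (0.53 to 1.98). The intervals of the libraries overlapped almost completely at both pixels. No other protein-coding gene had an end within 10 kb of the Vegfa anchor.

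Efnb1, the ephrin-B1 ligand of EPHB receptors (chromosome X, 99136061 to 99149022), reached 390 kb downstream in both libraries. The anchor lay 1061 bases before the gene's first base. The pixel had 17 contacts in DKO and 14 in WT, 8.04 times expected in DKO (4.68 to 12.9) and 6.49 times in WT (3.55 to 10.9), a ratio of 1.24 (0.575 to 2.71). With the horizontal expected count the enrichment was 6.2 in DKO and 3.67 in WT. Another pixel, over 440 kb, was listed in WT alone with 15 contacts (7.08, 3.96 to 11.7). No protein-coding gene ended within 10 kb of either distant anchor.

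The other 3 ligands with a contact were each listed in a single library. Tgfb2, the TGF-beta ligand on chromosome 1 (186622787 to 186709697), had a DKO pixel over 1170 kb with 13 contacts, 8.71 times expected (4.64 to 14.9), or 13.7 times with the bottom-left and 5.77 times with the horizontal expected count. An end of Rrp15 lay closer to the anchor than Tgfb2, 1086 bases against 5304. In WT a pixel of 12 contacts over 1035 kb lay at the next bin, 10304 bases from Tgfb2 and so just outside the 10 kb limit. The region therefore had long contacts in both lists, to different bins at the far end. Hbegf, heparin-binding EGF-like growth factor (chromosome 18, 36504927 to 36515805), had a pair of WT pixels. Their counts were 16 and 20 contacts over 125 and 120 kb, 4.41 times (2.52 to 7.16) and 5.81 times expected (3.55 to 8.97). They ran to ends of Cystm1 and Pfdn1, and Slc4a9 ended closer to the Hbegf anchor than Hbegf did. Tgfa, the EGFR ligand transforming growth factor alpha (chromosome 6, 86195038 to 86275744), had a WT pixel of 15 contacts over 90 kb. It stood at 4.5 times expected (2.52 to 7.43) and joined the 3′ end of Tgfa to Fam136a and Snrpg.

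No contact was called at the other 12 ligands. These were the EGF family members Areg, Ereg, Btc and Nrg1, the platelet-derived factors Pdgfa, Pdgfb and Pdgfc, the lymphatic factor Vegfc, Igf1, the KIT ligand Kitl, Tgfb1 and the ephrin Efnb2. Areg, Ereg and Btc, neighbours on chromosome 5, were at least 164617 bases from the nearest DKO anchor and at least 47261 from the nearest WT anchor. Tgfb1 came nearest, with a WT anchor 22002 bases away.

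Both receptors of the insulin family were joined to bins inside their own genes. Igf1r, the receptor of insulin-like growth factor 1 (chromosome 7, 67952257 to 68233668), had the same 2 pixels in both lists, from its promoter bin to bins inside the gene. The stronger, over 180 kb, had 19 contacts in DKO and 21 in WT, 6.84 times expected in DKO (4.12 to 10.7) and 6.06 times in WT (3.75 to 9.26). Its ratio was 1.13 (0.574 to 2.21), and that of the pixel over 175 kb was 0.944 (0.383 to 2.28). Insr, the insulin receptor (chromosome 8, 3150922 to 3279649), had 4 pixels in DKO and 2 in WT, all from its upper end to bins inside the gene over 50 to 65 kb. The identical pixel over 55 kb had 21 contacts in DKO and 23 in WT, 3.51 times expected in DKO (2.17 to 5.36) and 3.64 times in WT (2.31 to 5.47), a ratio of 0.963 (0.507 to 1.82). All Insr pixels lay within 2 bins of a pixel of the other list.

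Ephb2, a receptor of B-class ephrins (chromosome 4, 136647536 to 136836326), had the largest difference among the pixels listed in both, with the donut expected count. Its anchors at the promoter end were joined over 155 to 165 kb to bins inside the gene. The identical pixel had 22 contacts in DKO and 39 in WT, 3.70 times expected in DKO (2.32 to 5.6) and 5.88 times in WT (4.18 to 8.04). The ratio of 0.629 had an interval of 0.355 to 1.09, which includes 1. A further 3 WT pixels beside it had 24 to 34 contacts, and no DKO pixel was called at those pairs of bins. With the largest of the 4 expected counts the identical Ephb2 pixel stood at 2.68 times in DKO and 4.09 times in WT. The identical Efnb1 pixel then differed more, at 6.2 times in DKO and 3.67 times in WT.

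Egfr, the receptor of EGF, TGF-alpha and amphiregulin (chromosome 11, 16752203 to 16913907), had a DKO pixel over 100 kb. It ran from the bin after the gene's start to a bin inside the gene, with 14 contacts at 4.59 times expected (2.51 to 7.71). Its largest q-value was 0.0528, and the lowest count listed in either library in that class of expected counts was 12, so the call was near the limit of what is listed. Other pixels described here had larger values still, among them Tgfa in WT (0.079) and Erbb2 (0.0537 in DKO and 0.082 in WT). So did Ephb2 in DKO (0.0676), Igfbp3 over 1210 kb in DKO (0.0556) and Igfbp5 over 755 kb in WT (0.0836). That of Igf1r over 175 kb in DKO was 0.0892. Of the 10 genes here that were at least 100 kb long, 4 had a pixel, Egfr, Igf1r, Insr and Ephb2, and all 4 had a pixel with both anchors inside the gene. Over the 2429 protein-coding genes of that length, 24.1% had a pixel in either list and 6.5% had one with both anchors inside. The Igf1r and Insr pixels of this kind were in both lists, that of Egfr in DKO alone and those of Ephb2 in WT alone. The DKO pixel of Ephb2 ran from the adjoining bin, 3675 bases outside the gene, to a bin inside it, and was listed in WT too.

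**Figure D2:**
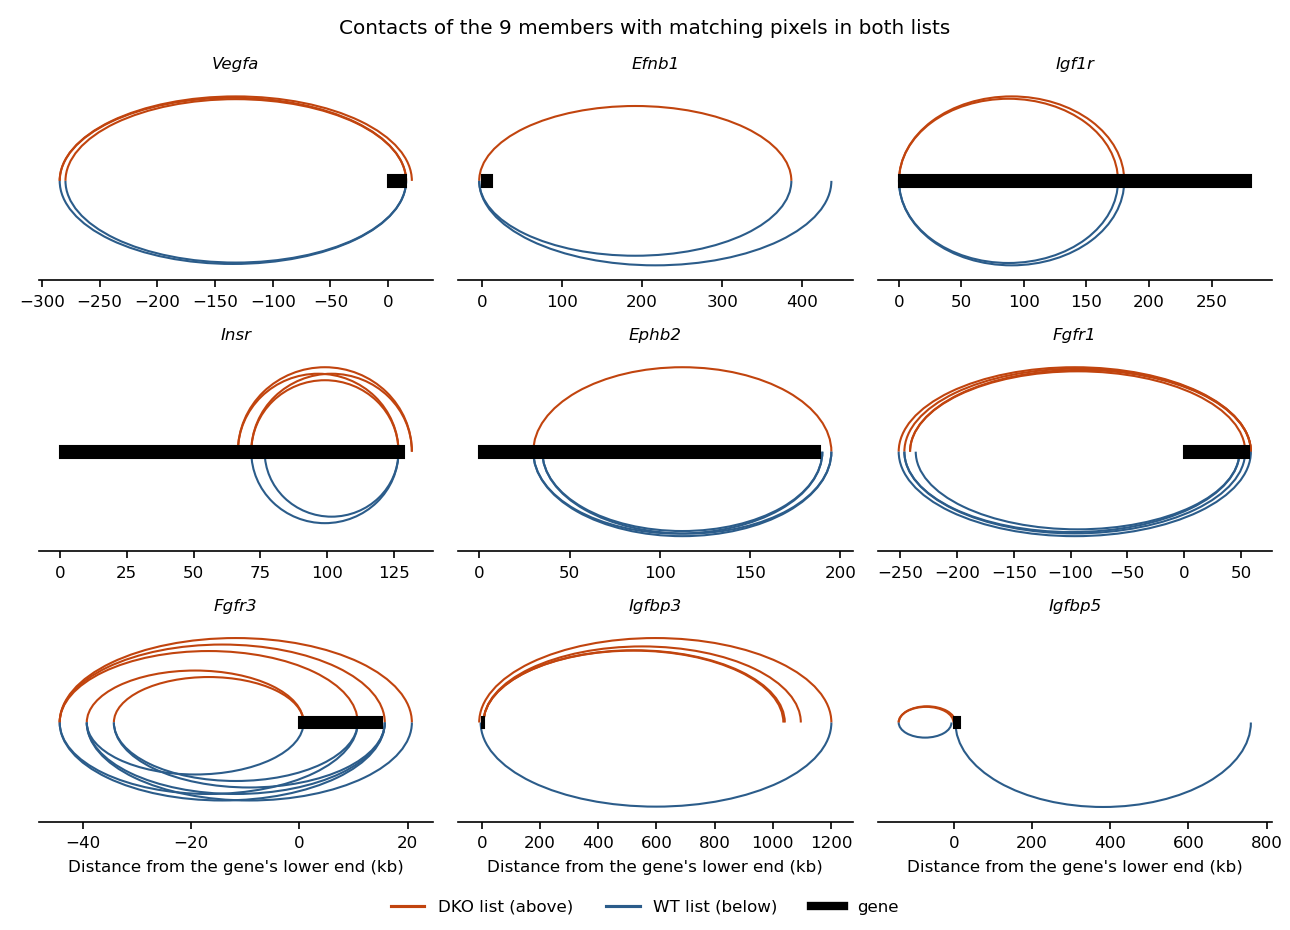
Called contacts of the 9 genes that have a pixel of each list within 2 bins of each other, by distance from the gene's lower coordinate (kb). Arcs join the centres of the anchor bins, DKO above and WT below, and the black bar is the gene; Igf1r, Insr and Ephb2 are joined to bins inside the gene, and Igfbp3 to bins 1030 to 1210 kb away.

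The fibroblast growth factor receptors had the most pixels. Fgfr3, which restrains bone growth and is active in epidermis (chromosome 5, 33721724 to 33737068), had 5 in DKO and 7 in WT. Over all genes with a pixel the median was 2 in both lists together, and 3.03% had as many as the 12 of Fgfr3. That number counts adjoining bins apart and a shared pixel once per list. Most of the 12 had their anchor at the 3′ end, within 10 kb of an end of Letm1. At the outermost anchor bin Letm1 lay closer, 328 bases against 2933. All 12 pixels ran 35 to 65 kb upstream, towards Tacc3, a mitotic spindle protein gene whose end lay within 10 kb of most of the far anchors. The identical pixels had enrichments of 3.72, 3.36 and 3.99 in DKO and 2.81, 3.64 and 3.86 in WT. Their ratios were 1.32 (0.735 to 2.41), 0.924 (0.517 to 1.64) and 1.03 (0.573 to 1.87). The first of these pixels held the Fgfr3 promoters, while the others lay at the 3′ end, where Letm1 ends as well.

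Fgfr1 (chromosome 8, 25518759 to 25575718) had 4 pixels in each list over 285 to 310 kb, from its upper end to bins near Tacc1. Tacc1, like Tacc3, belongs to the TACC gene family. The identical pixel had 17 contacts in DKO and 18 in WT, 6.24 times expected in DKO (3.64 to 10.0) and 6.51 times in WT (3.86 to 10.3), a ratio of 0.959 (0.465 to 1.97). With the horizontal expected count it stood at 3.79 times in DKO and 4.08 times in WT. Tacc1 ended within 10 kb of the far bin of that pixel, and not within 10 kb of the far bins of the other Fgfr1 pixels. Letm2, a paralogue of Letm1, ended in the same anchor bin as Fgfr1.

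Erbb2, the co-receptor of the EGF family (chromosome 11, 98412484 to 98437716), was listed in both libraries but not with the same contact. The DKO pixel spanned 35 kb with 26 contacts at 2.64 times expected (1.73 to 3.87), and the WT pixel 55 kb with 19 contacts at 3.53 times (2.12 to 5.51). They lay 5 bins apart. Both ran upstream to the block of Pgap3, Pnmt, Tcap and Stard3, the DKO one from a bin inside Erbb2 and the WT one from a bin at Grb7, an adaptor protein gene. Mst1r, the receptor of macrophage stimulating protein (chromosome 9, 107906858 to 107920383), had a WT pixel of 17 contacts over 150 kb. It stood at 4.75 times expected (2.77 to 7.61) and ran from a bin 1858 bases outside Mst1r, in which Mon1a ends and so lies closer, to Gmppb, Rnf123, Amigo3 and Ip6k1.

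No contact was called at Erbb3, Erbb4, Met, Ntrk2, Ephb4, Epha2, Ddr1, Tgfbr1 or Tgfbr2. Met, the receptor of hepatocyte growth factor, was the gene without a pixel that lay nearest to the limit, 11021 bases from an anchor in both lists. Those pixels spanned 480 kb in DKO and 485 kb in WT, with 11 contacts in each, 6.92 times expected in DKO and 6.98 times in WT. Among the genes with a pixel the farthest was Erbb2, 7517 bases from its DKO anchor and 7285 from its WT anchor.

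The binding proteins hold insulin-like growth factors in the tissue. Igfbp3 (chromosome 11, 7206086 to 7215498) was joined over 1210 kb in DKO and 1205 kb in WT to the same distant bin, with 12 contacts in DKO and 15 in WT. These stood at 8.62 times expected in DKO (4.45 to 15.1) and 10.3 times in WT (5.74 to 16.9), from anchors 1 bin apart. With the vertical expected count the order turned around, 10.8 times in DKO and 6.19 times in WT. Igfbp1, the neighbour of Igfbp3, ended inside both anchor bins and so lay closer than Igfbp3. From the bin that holds an annotated Igfbp3 start, 3 further DKO pixels of 11 to 14 contacts reached 1030 to 1090 kb, and the nearest WT pixels were 21 to 33 bins away. No protein-coding gene ended within 10 kb of the far anchors.

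Igfbp5 (chromosome 1, 72858065 to 72874865) was joined downstream to the ribosomal protein gene Rpl37a in both libraries. Its 2 DKO pixels had 14 and 19 contacts over 140 and 145 kb, 5.75 times (3.14 to 9.65) and 6.08 times expected (3.66 to 9.50). The second stood at 9.8 times with the vertical expected count. The WT pixel had 18 contacts over 135 kb at 5.57 times (3.30 to 8.81), from the bin in which the neighbouring Igfbp2 ends. A further WT pixel of 11 contacts reached 755 kb upstream (7.18, 3.58 to 12.8). All Igfbp3 and Igfbp5 anchors thus lay within 10 kb of Igfbp1 or Igfbp2, the binding protein genes beside them. At the pixels matched between the lists the DKO and WT intervals overlapped for both genes.

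Of the 4 feedback inhibitors 1 had a called contact, a share of 25% against 28.3% of all genes in either list. Spry1, a Sprouty inhibitor of RAS signalling (chromosome 3, 37639947 to 37644599), had 1 DKO pixel over 40 kb upstream with 17 contacts at 3.35 times expected (1.95 to 5.37). Its largest q-value was 0.0826, and 17 was the lowest count listed in its class of expected counts. Spry2, Spry4 and the MAPK phosphatase gene Dusp6 had none, with the nearest anchors 2351947, 136247 and 1923231 bases away in DKO and 1861947, 248654 and 93231 bases away in WT.

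At the 11 identical pixels of 7 genes, the median log2 DKO/WT ratio of enrichment was −0.03, with quartiles of −0.07 and 0.11. Over all 1940 pixels listed in both the median was −0.02, with quartiles of −0.25 and 0.20. The ratio was below 1 at 6 of the 11 pixels. The interval of the ratio included 1 at all 11, and over all listed pixels 1.6% had an interval without 1. No difference was therefore detected at these 11 pixels. The lower bounds ran between 0.355 and 0.735 and the upper bounds between 1.09 and 2.71. Only pixels called in both lists have a ratio, which leaves out contacts called in 1 library alone and favours ratios near 1. Of the 6 genes listed in a single library, 4 had a highest count at most 3 contacts above the lowest count listed in their class of expected counts, the exceptions being the WT pixels of Hbegf and Mst1r. At an FDR under 0.01, 0 of the genes were listed in DKO alone, 2 (Ephb2 and Hbegf) in WT alone and 8 in both libraries. At that threshold 3.54% of all genes were in the DKO list alone, 4.86% were in the WT list alone and 5.97% were in both.

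**Figure D3:**
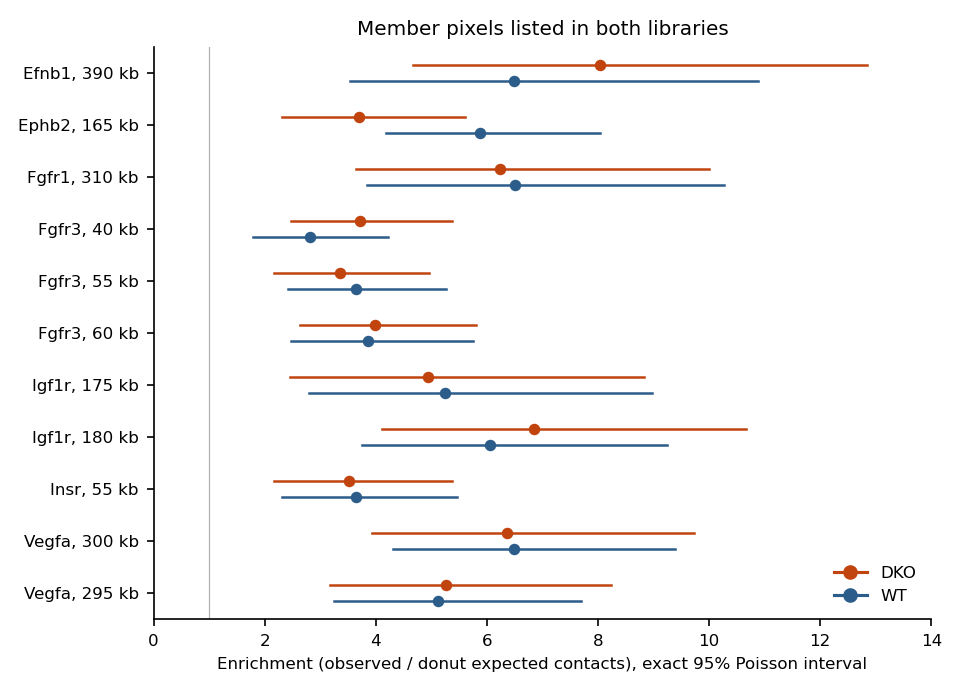
Enrichment (observed over donut expected contacts) at the 11 pixels listed in both libraries, labelled by gene and span, DKO above WT. Bars are exact 95% Poisson intervals on the observed counts; the DKO and WT intervals overlap at every pixel, and Ephb2 has the widest gap, 3.70 in DKO and 5.88 in WT.

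Other genes of these pathways were counted in the same way. Over all protein-coding genes 20.1% had a pixel in DKO, 21.2% in WT and 12.9% in both. Of 39 other receptor tyrosine kinase genes, 9 had a pixel in DKO and 9 in WT (23.1% each). In both lists were 6 (15.4%), among them Fgfr2, Ror2 and Ephb3. These shares were near those of all genes. Of 27 other growth factors and ligands, 9 (33.3%) had a pixel in DKO and 10 (37%) in WT. In both were 6 (22.2%), including Egf, Igf2 and the ephrin Efna2. Of 36 downstream RAS, MAPK and PI3K genes, 13 (36.1%) had one in DKO and 14 (38.9%) in WT. In both were 8 (22.2%), including Grb2, Nf1, Stat3, Fos and Jun. Of 14 other feedback inhibitors, 3 (21.4%) had one in DKO, 4 (28.6%) in WT and 2 (14.3%) in both. The downstream genes had contacts most often, 52.8% in either list, and the other receptors least often, 30.8%, near the 28.3% of all genes. The other ligands stood at 48.1% and the other feedback inhibitors at 35.7%.

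**Figure D4:**
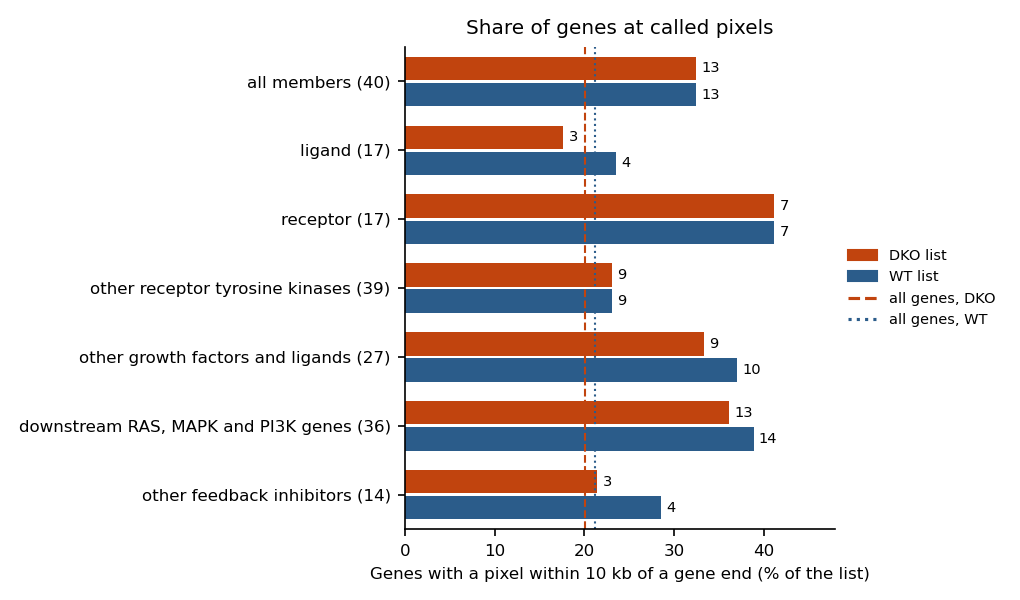
Share of the genes of each list with a called pixel within 10 kb of a gene end, in percent, DKO above WT, with the number of genes beside each bar and the list size in brackets; the 4 feedback inhibitors and 2 binding proteins are not drawn apart. Vertical lines give the shares over all protein-coding genes, 20.1% in DKO (dashed) and 21.2% in WT (dotted); the receptors described here reach 7 of 17 in both lists, the ligands 3 in DKO and 4 in WT.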

How the data were processed

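Each library has 1 deposited list of enriched pixels, written by juicer_tools 1.22.01, per the file headers. The submitters' processing notes name Juicer and the build GRCm38 (mm10). The aligner, read filters and depth were not given in the sources used here. Observed counts of contacts per pixel were deposited without normalisation. Expected contacts in 4 neighbourhoods were deposited as a signal on the same scale, with a score giving the class of each. Each neighbourhood also has a q-value from the authors, under 0.1 throughout.

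From these, enrichment was computed as observed over donut expected counts, with exact 95% Poisson intervals, and DKO/WT ratios with conditional binomial intervals. Both cover counting error only, with expected counts taken as fixed. Gene positions are those of RefSeq for GRCm38.p6, and starts were placed for 32 of the 40 genes from its promoter table. Genes named at anchors are protein-coding. Coordinates are 1-based. All 40 genes were accounted for, with the pixel of highest count or the identical pixels given for those listed. The genes and lists were chosen with earlier results of these data known. Assignment and intervals were tested on simulated data. Python 3.11.15, numpy 2.4.6, scipy 1.17.1 and pandas 2.3.3 were used. Alternatives were other distances to gene ends, gene starts alone, an FDR under 0.01, at least 20 observed or 1 expected contacts, removal of weak single pixels (none other within 20 kb and q-values summing to over 0.02), other expected counts and other definitions of a match. Neighbouring pixels share reads and are not independent.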

Additional observations from a re-analysis of the deposited data

How the results depend on the processing

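No paired analysis was possible because DKO and WT have a single library each, so none could be left out either. Of 67 summary values recomputed, 48 stayed within 1.5 times (counts) or within the order-statistic interval of the median, and 19 did not. With gene ends inside the anchor bin, 6 genes were listed in DKO, 6 in WT and 5 in both, with 13 pixels in each list. At an FDR under 0.01 in all neighbourhoods, 8 genes were listed in DKO, with 13 DKO and 19 WT pixels. With at least 20 observed contacts, 6 genes were listed in DKO, 7 in WT and 5 in both, with 11 DKO pixels (median enrichment 3.70) and 19 WT pixels. The median enrichment was 3.85 in DKO and 3.83 in WT with the horizontal expected count, and 3.82 in DKO and 3.67 in WT with the largest of the 4. With gene starts alone, 8 genes were listed in WT, where 32 of the 40 genes have a placed start. Hbegf, Insr and Fgfr1, which have WT pixels at a gene end, have no placed start and so could not be listed. Beyond those missing starts, the cause of these changes was not tested. The median log2 DKO/WT ratio at pixels listed in both ran from −0.08 to 0.14. Of 104 recomputed enrichments of single genes, 97 stayed within their interval.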

Other observations

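Some genes outside the 40 stood beside them in pathway or place. Mst1, the ligand of the receptor Mst1r, had a WT pixel of its own on the same chromosome and none in DKO. That pixel had 23 contacts over 105 kb at 5.13 times expected (3.25 to 7.69). Mst1r was also listed in WT alone, from an anchor to which Mon1a lay closer. Genes listed in WT alone were 14.8% of the 27 other ligands and 8.23% of all protein-coding genes. Fgfr2, the epithelial FGF receptor, was joined over 615 kb with 21 contacts in DKO and 26 in WT, 6.36 times expected in DKO (3.94 to 9.72) and 8.12 times in WT (5.30 to 11.9). Nf1, an inhibitor of RAS, stood at 9.87 times in DKO (6.56 to 14.3) and 10.0 times in WT (6.96 to 13.9) over 105 kb. Spred1, a relative of the Sprouty genes, reached 280 kb at 7.53 times in DKO (4.77 to 11.3) and 9.45 times in WT (6.33 to 13.6). The intervals of the libraries overlapped at Fgfr2, Nf1 and Spred1. These genes were chosen after their values were seen.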
